A study of Mus musculus with 13 samples.

Results

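Complement is represented here by 9 genes, C2, C3, C4b, Cfb, C1ra, C1s1, Serping1, Hc and C3ar1, and all 9 were found by Entrez identifier among the 23366 genes measured in mouse pancreas. They were listed by name, but this list and the other gene lists below were chosen with earlier results of these data known. The study asked whether a short induction of the reprogramming factors OCT4, SOX2, KLF4 and MYC (OSKM) moves the old pancreas towards the young state, and RNA from whole pancreas was sequenced after rRNA depletion, with 1 library per mouse. The young group held 4 females of 13 weeks, the old group 5 females of 55 weeks, and the old-OSKM group 4 females labelled 58 weeks that drank doxycycline for 7 days and then recovered for 2 weeks. All 13 were reprogrammable i4F-B mice, whose ubiquitous, doxycycline-inducible cassette sits in the Pparg gene, and the young and old mice received no doxycycline. The study's methods name sucrose in the doxycycline water and do not say whether untreated mice drank it. Between old-OSKM and old mice, the drug, the sucrose, the labelled age and the factors therefore cannot be told apart. By SOX2 staining of a young mouse injected with doxycycline, which is not the treatment used here, the study describes the cassette as active in acinar cells but not in most endocrine cells. The measurements are log2 RPKM, that is, reads scaled to the transcript's length and to the library's mapped total, quantile normalized by the authors.

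Complement is a cascade of plasma proteins that marks targets for removal, draws in leukocytes and can open pores in membranes. In the classical pathway C1q binds its target and activates the proteases C1r and C1s, which cleave C4 and C2 into a C3 convertase. The alternative pathway builds a second convertase from C3b and factor B, and both lead to C5 and the membrane attack complex. The liver makes most of the plasma proteins, and fibroblasts, macrophages and epithelial cells make several of them locally, C1q being chiefly a macrophage product. In bulk tissue, fewer cells of a type and less RNA per cell cannot be told apart.

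The 13 libraries carried the markers of exocrine pancreas, with a summed level of 9 acinar genes between 8113 and 8645 RPKM. A pair of libraries stood apart in liver transcripts. The summed level of 11 hepatocyte markers was 83.8 RPKM in young mouse 3 and 9.19 in old mouse 4, against 1.36 to 4.12 in the other 11 mice. Since several complement genes are liver genes, results that rest on these mice are given with and without them. Sample identifiers fall into 2 runs, and young mice 3 and 4 and old mouse 5 belong to the later run, which holds no old-OSKM mouse. The runs are a gap in numbering only, and no label says that the samples were handled apart. The study's methods give a single read number for all samples, and the table holds no read total per mouse, so the counting error behind a value is unknown.

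On mm10 (GRCm38), C4b (chr17:34728139-34743902), Cfb (chr17:34856374-34862514) and C2 (chr17:34862602-34882100) lie on the minus strand of the major histocompatibility region, and 87 bases separate Cfb from C2. C3 lies farther along the same chromosome (chr17:57203967-57228136). C1ra (chr6:124512621-124523440, plus strand) and C1s1 (chr6:124530344-124542392, minus strand) are neighbours 6903 bases apart, and C3ar1 (chr6:122847140-122856157) is on that chromosome too. Serping1 (chr2:84765360-84775444) and Hc (chr2:34983329-35068506) are on chromosome 2. Near-identical copies limit some values. Of all 50-base stretches in the longest transcript, 48.0% of C1ra occurred also in C1rb, 35.2% of C4b also in C4a and 24.3% of C1s1 also in C1s2. With any other gene counted, shared stretches made up 50.8% of C1ra (C1rb and Gm18840) and 39.0% of C1s1 (C1s2 and Gm16567). A read-through transcript, Gm20547, which is not listed in the table, held 58.0% of those of C2 and 81.4% of those of Cfb. The study's methods leave out reads that map to many places, but a read shared by a pair of copies can pass that filter. How such reads were divided between the copies is not given in the sources used here, so the levels of C1ra, C1s1, C4b, C2 and Cfb are uncertain to that degree, while C3, Serping1 and C3ar1 shared no such stretch.

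Because 8 of the 9 genes varied together between mice, the 250 bases before the start were searched for motifs of factors that act on acute phase genes. RefSeq promoters of GRCm38.p6 matched 5 of the 9 genes, and the sequences of C3, C3ar1 and C1ra are shown, for the central component, the receptor and a classical protease. They cover chr17:57228137-57228386 on the minus strand, chr6:122856158-122856407 on the minus strand and chr6:124512371-124512620 on the plus strand. Capitals mark the motif found.
C3: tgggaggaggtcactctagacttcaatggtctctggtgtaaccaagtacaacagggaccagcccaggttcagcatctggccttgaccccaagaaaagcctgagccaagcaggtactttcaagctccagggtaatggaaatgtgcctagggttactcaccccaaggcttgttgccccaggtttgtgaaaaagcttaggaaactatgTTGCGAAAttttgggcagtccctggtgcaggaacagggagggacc
C3ar1: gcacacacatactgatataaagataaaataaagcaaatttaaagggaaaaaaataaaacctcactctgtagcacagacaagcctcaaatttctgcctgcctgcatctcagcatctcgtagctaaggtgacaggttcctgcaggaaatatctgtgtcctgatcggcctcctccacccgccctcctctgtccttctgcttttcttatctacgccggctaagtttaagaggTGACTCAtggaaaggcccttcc
C1ra: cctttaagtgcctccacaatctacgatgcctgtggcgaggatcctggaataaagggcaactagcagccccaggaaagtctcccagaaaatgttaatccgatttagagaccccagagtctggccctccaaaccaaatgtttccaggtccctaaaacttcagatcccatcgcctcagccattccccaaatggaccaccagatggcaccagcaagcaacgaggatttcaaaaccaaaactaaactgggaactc
C3 held a C/EBP match, TTGCGAAA, from 45 to 38 bases before the start, and C3ar1 held an AP-1 match, TGACTCA, from 22 to 16 bases before it. Of the genes searched but not shown, C1s1 held a C/EBP match, TTAGGCAA, from 242 to 235 bases before a start, and Hc held none. The windows of C1s1 overlapped the span of the gene given above. That of Hc (chr2:35061413-35061662) lay wholly within its span, so the end of that span was not searched. C1ra held none of the 5 motifs searched on both strands. These were TTCNNNGAA for STAT, GAAANNGAA for IRF, GGGNNTTCC for NF-kB, TTGCNNAA for C/EBP and TGANTCA for AP-1, and none of them overlapped another match in these windows. Of 32851 promoter windows of the same length, 7.02%, 7.13%, 4.98%, 9.56% and 6.75% held them, respectively. A match is a run of letters and not a site shown to be bound.

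Per length of transcript, C3 was the most abundant of the 9 genes, at a mean of 2.81 log2 RPKM over 13 mice. It was followed by Serping1 (2.03), C1s1 (1.73), C1ra (0.91), C4b (0.85), Cfb (0.29), C2 (-0.35), C3ar1 (-0.54) and Hc (-4.23). C3 exceeded Serping1, Serping1 exceeded C1s1 and C1s1 exceeded C1ra in 13 of 13 mice. C1ra and C4b were not separated, with C1ra higher in 7 mice and a within-mouse difference of 0.07 ± 0.50 (SD, n = 13). The order of the others held in 12 mice for C4b over Cfb, in 12 for Cfb over C2 and in 10 for C2 over C3ar1. Hc, the gene of complement C5, was below all others in 12 mice.

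**Figure D1:**
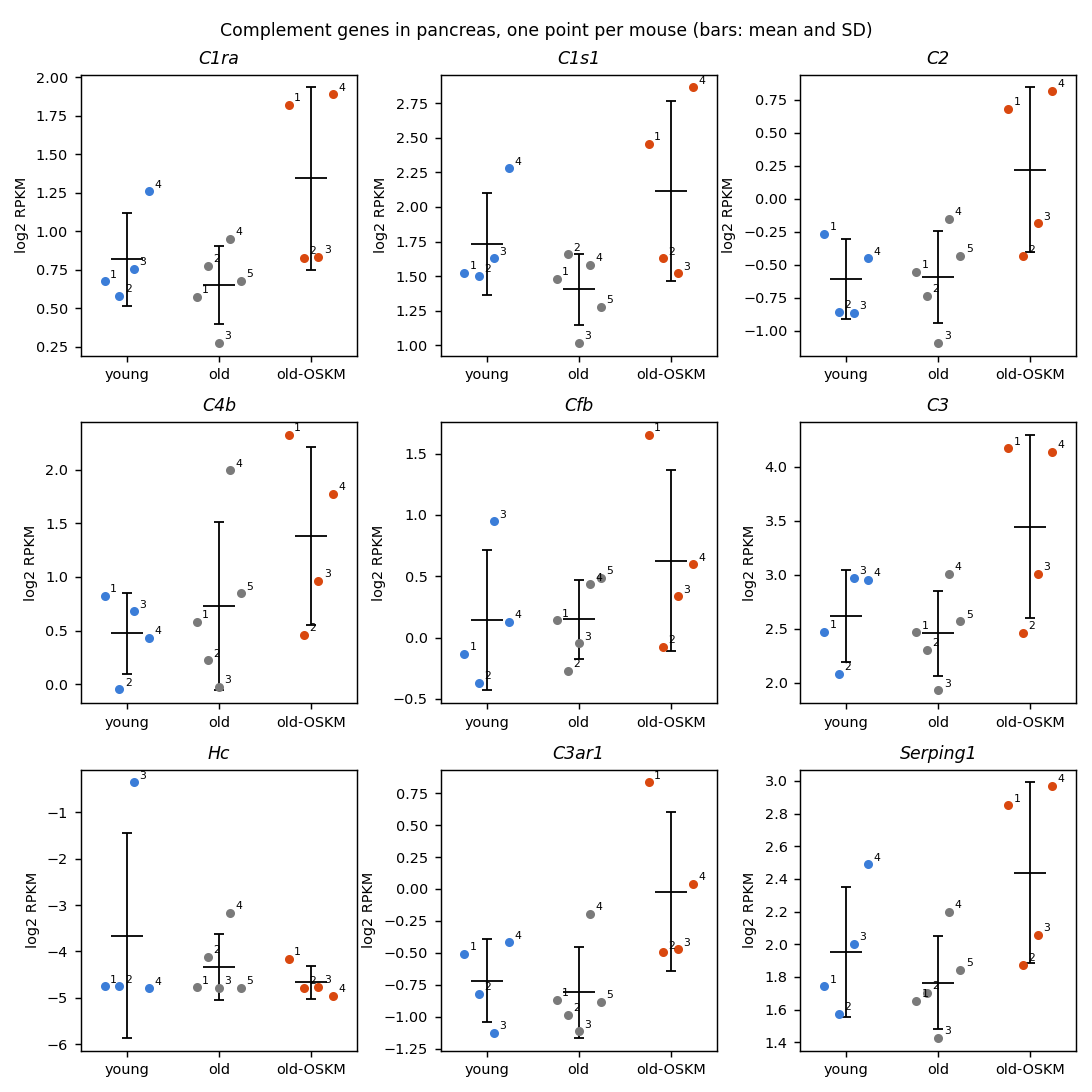
Level of each of the 9 genes (log2 RPKM, vertical axis) in young, old and old-OSKM pancreas, with 1 numbered point per mouse and black bars for the group mean and SD. Old-OSKM mice 1 and 4 sit above both other old-OSKM mice in 8 genes, and Hc is high in young mouse 3 only, at -0.35.

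Among the proteases of the classical pathway, C1ra and C1s1 were alike. C1ra, one of a pair of mouse genes for the protease C1r, was at 0.68, 0.58, 0.76 and 1.26 log2 RPKM in young mice 1 to 4, at 0.57, 0.77, 0.27, 0.95 and 0.68 in old mice 1 to 5, and at 1.82, 0.83, 0.83 and 1.89 in old-OSKM mice 1 to 4. Old-OSKM mice 1 and 4 were above every untreated mouse, and old-OSKM mice 2 and 3 lay within the range of both other groups. Old-OSKM mice exceeded old mice by 0.69 ± 0.25 (SE, log2), or 1.62-fold, with a raw p of 0.0181 and an adjusted p of 0.547 in limma. C1s1, for the protease that C1r activates, was at 1.52, 1.503, 1.63 and 2.28 in young mice, at 1.48, 1.66, 1.02, 1.58 and 1.28 in old mice, and at 2.45, 1.63, 1.52 and 2.86 in old-OSKM mice. Here again old-OSKM mice 1 and 4 alone passed the highest untreated mouse, young mouse 4. The difference was 0.71 ± 0.28, or 1.64-fold, with a raw p of 0.0257 and the same adjusted p, and it was 0.46 without old-OSKM mouse 4.

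The substrates of these proteases differed in their spread. C2, which supplies the catalytic part of the classical convertase, was at -0.26, -0.86, -0.86 and -0.45 log2 RPKM in young mice, at -0.55, -0.73, -1.09, -0.15 and -0.43 in old mice, and at 0.68, -0.44, -0.19 and 0.82 in old-OSKM mice. Its old-OSKM mean was above both other groups by nearly the same amount, 0.81 ± 0.28 over old mice (raw p 0.0134) and 0.83 ± 0.29 over young mice (raw p 0.0159), with adjusted p-values of 0.547 and 0.706 in limma. C4b, the other substrate, was at 0.82, -0.05, 0.68 and 0.43 in young mice, at 0.58, 0.22, -0.02, 2.00 and 0.85 in old mice, and at 2.33, 0.46, 0.97 and 1.78 in old-OSKM mice. Old mouse 4, the old mouse with most liver transcripts, was second only to old-OSKM mouse 1 in C4b. The difference between old-OSKM and old mice, 0.66 ± 0.44 with a raw p of 0.167, became 0.97 with a raw p of 0.0337 when young mouse 3 and old mouse 4 were left out, and 0.34 without old-OSKM mouse 1. Its partly identical copy C4a was lower, with group means of -1.23, -0.94 and -0.52 in young, old and old-OSKM mice.

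C3, the component on which all pathways meet, had the largest difference of the 9 genes between old-OSKM and old mice. It was at 2.47, 2.08, 2.97 and 2.95 log2 RPKM in young mice, at 2.47, 2.31, 1.93, 3.01 and 2.57 in old mice, and at 4.17, 2.46, 3.01 and 4.14 in old-OSKM mice. The groups overlapped, because old-OSKM mouse 2 was at the level of the old mice while old-OSKM mice 1 and 4 were more than 1 log2 unit above them. The difference was 0.99 ± 0.36, with a 95% confidence interval from 0.19 to 1.79, a fold change of 1.98 and a raw p of 0.0194 (adjusted p 0.547 in limma). Cfb, for factor B, the protease of the alternative convertase, was at -0.13, -0.37, 0.95 and 0.13 in young mice, at 0.14, -0.27, -0.05, 0.44 and 0.49 in old mice, and at 1.65, -0.08, 0.34 and 0.60 in old-OSKM mice. A single old-OSKM mouse, number 1, was above every untreated mouse, and the highest untreated value belonged to young mouse 3. The difference from old mice was 0.48 ± 0.35, with a raw p of 0.194, and it was 0.14 without old-OSKM mouse 1.

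Serping1 encodes the C1 inhibitor, which blocks C1r and C1s, and C3ar1 encodes the receptor of C3a on leukocytes. Serping1 was at 1.74, 1.57, 2.00 and 2.49 log2 RPKM in young mice, at 1.66, 1.70, 1.43, 2.20 and 1.84 in old mice, and at 2.85, 1.87, 2.06 and 2.97 in old-OSKM mice. It was high in the same mice as its target proteases, old-OSKM mice 1 and 4 and, among the untreated mice, young mouse 4. It was higher in old-OSKM than in old mice by 0.67 ± 0.26, or 1.59-fold, with a raw p of 0.0255 and an adjusted p of 0.547 in limma. C3ar1 was at -0.51, -0.82, -1.13 and -0.42 in young mice, at -0.87, -0.99, -1.11, -0.19 and -0.88 in old mice, and at 0.83, -0.50, -0.47 and 0.04 in old-OSKM mice. All 4 old-OSKM mice were above 4 of the 5 old mice, and old mouse 4 reached into their range. The difference from old mice was 0.79 ± 0.28, or 1.72-fold (raw p 0.017, adjusted p 0.547), and the difference from young mice was 0.69 ± 0.30 (raw p 0.0384, adjusted p 0.706). Without old-OSKM mouse 1 these differences of C3ar1 were 0.50 and 0.41.

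Hc did not follow the others. It was at -4.75, -4.75, -0.35 and -4.79 log2 RPKM in young mice, at -4.78, -4.12, -4.79, -3.16 and -4.79 in old mice, and at -4.15, -4.78, -4.76 and -4.96 in old-OSKM mice. The high value belonged to young mouse 3 and the next to old mouse 4, the same order as in the hepatocyte markers, whose part in the result was not tested. Values in 9 of the 13 mice lay within 0.3 of the lowest, so that Hc stayed near its own lowest level in most pancreata. The difference between old and young mice was -0.67 ± 0.82 with both of these mice and 0.15 without them, and old-OSKM mice differed from young mice by -1.004 ± 0.86 with them and by 0.10 without them.

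Between old and young mice, none of the 9 genes was called, which required a raw p under 0.01 and more than a 1.5-fold change, where 0.886% of all genes were. None had a raw p under 0.05 either, against 5.52% of all genes, and the young and old values overlapped in all 9, against 2.71% of all genes in which they did not. The differences ran from -0.67 in Hc to 0.25 in C4b, with 3 genes higher and 6 lower in old mice and a median of -0.16, beside 0.00125 over all genes. The 95% confidence interval of C3 ran from -0.96 to 0.63 and that of C1ra from -0.72 to 0.38, so changes within these bounds are compatible with these data. Among mice of the earlier identifier run alone, where only 2 young mice remain, the median of the 9 differences was 0.09. Adjusted p-values were 1 for all 9 genes in limma.

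Between old-OSKM and old mice, 8 of the 9 genes had the higher mean in old-OSKM mice, with a median difference of 0.69, beside -0.04 over all genes. None was called, where 0.753% of all genes were. At a raw p under 0.05, 6 of the 9 genes were higher (C2, C3, C1ra, C1s1, Serping1 and C3ar1), against 3.98% of all genes, and none was lower, against 4.08%. Their adjusted p-values over all genes were 0.547 each in limma, so none passed the correction. By the two-sided exact permutation test, whose smallest possible p is 0.00794 here, C1ra and C3ar1 had a p of 0.0317, C1s1 of 0.0397 and Serping1 of 0.0476, while C2 had a p of 0.0556 and C3 of 0.0794. In no gene did the 2 groups separate, against 1.73% of all genes. Since these 6 genes varied together from mouse to mouse, they are not 6 independent results. The 9 genes were also chosen with earlier results of these data known, so the count is not that of a blind choice. Within the earlier identifier run, which leaves 4 mice in each group, the median difference was 0.69 again and 5 genes had a raw p under 0.05. Each count rested on few mice. Without young mouse 3 and old mouse 4, the mice with liver transcripts, 7 genes had a raw p under 0.05 and C3ar1 was called. Without old-OSKM mouse 1 the only gene with a raw p under 0.05 was C2, and without old-OSKM mouse 4 it was C3ar1. Without old-OSKM mouse 2, 5 genes were called (C2, C3, C1ra, Serping1 and C3ar1), without old-OSKM mouse 3 the called genes were C2, C1ra and C1s1, and without old mouse 4 they were C2 and C3ar1. Calls over all genes moved as well, from 176 with every mouse to 338 without old-OSKM mouse 2. They were 284 without old-OSKM mouse 3 and 94 without old-OSKM mouse 1.

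Compared with young mice, old-OSKM mice had a higher mean in the same 8 genes, with a median difference of 0.53, beside -0.04 over all genes. None was called, where 0.625% of all genes were, and C2 and C3ar1 had a raw p under 0.05, against 2.91% of all genes that were higher at that p. None was lower at that p, against 2.16% of all genes, and none separated the groups, against 1.90%. All 9 adjusted p-values were 0.706 in limma, and by the exact permutation test, whose smallest possible p is 0.0286 here, the lowest was 0.0571, in C2. Without old-OSKM mouse 1 or without old-OSKM mouse 4 no gene had a raw p under 0.05, and without old-OSKM mouse 2 there were 6, with C2 and C3 called. Without young mouse 2 there was 1 such gene, and without young mouse 4 or without old-OSKM mouse 3 there were 4. Over all genes, 253 were called without old-OSKM mouse 2, in place of 146 with every mouse. The 3 comparisons share mice, so they do not support one another.

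**Figure D2:**
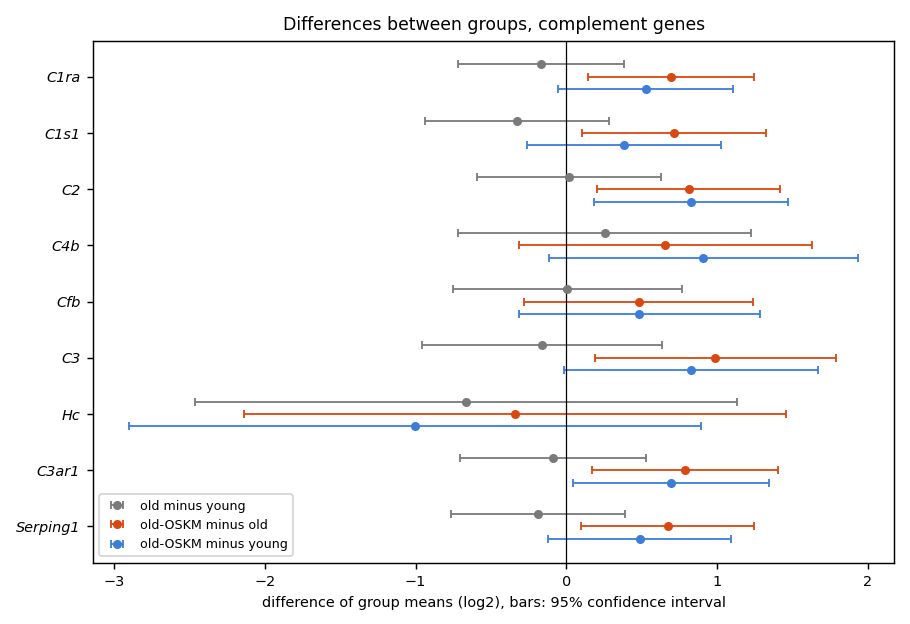
Difference of group means (log2, horizontal axis) for each of the 9 genes in the 3 comparisons, with bars for the 95% confidence interval of limma. The differences between old and young mice lie around 0, those between old-OSKM and old mice are above 0 in 8 genes, and the bars of Hc are the widest.

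The 4 old-OSKM mice were not alike. Old-OSKM mouse 1 was above all 9 untreated mice in 8 of the 9 genes and old-OSKM mouse 4 in 6, while old-OSKM mice 2 and 3 were above them in 0. Summed over the 9 genes, complement RNA amounted to 45.9 RPKM in old-OSKM mouse 1 and 44.2 in old-OSKM mouse 4, and to 17.9 and 21.7 RPKM in old-OSKM mice 2 and 3. The untreated mice ranged from 12.6 to 24.8 RPKM, old mouse 3 being lowest of all mice in 5 genes. Over the 13 mice, Pearson's r between pairs of the 8 genes without Hc ran from 0.49 to 0.98, with a median of 0.84 over 28 pairs, and Spearman's rho from 0.31 to 0.95. With the 2 mice farthest from the median of the gene named first left out of each pair, r ran from 0.18 to 0.94, and in the 9 untreated mice alone it ran from -0.05 to 0.95 with a median of 0.60. Pairs with Hc had r from -0.21 to 0.42. These are descriptions over mice that share a normalization, without a test.

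Markers of several other cell types, but not of all, were high in the same mice. The summed level of 10 macrophage markers was 32.5 and 30.2 RPKM in old-OSKM mice 1 and 4, 13.6 and 13.4 in old-OSKM mice 2 and 3, and 9.36 to 19.0 in the untreated mice. That of 10 fibroblast markers was 52.5 and 88.4 RPKM in old-OSKM mice 1 and 4, 36.8 and 33.2 in old-OSKM mice 2 and 3, 34.5 to 67.5 in young mice and 24.0 to 33.0 in old mice. Young mouse 4 had the highest sum of both lists among the untreated mice, and it was also the highest of them in C1ra, C1s1 and Serping1. Adipocyte markers (6 genes) summed to 11.5 and 15.3 RPKM in old-OSKM mice 1 and 4, against 3.37 to 8.69 in the other 11 mice, and T cell markers (5 genes) to 5.15 in old-OSKM mouse 1, against 0.59 to 1.62 in all others. Between old-OSKM and old mice, 5 of the 10 macrophage markers and 7 of the 10 fibroblast markers were higher at a raw p under 0.05, against 3.98% of all genes, and the fibroblast markers Col1a1, Col1a2, Thy1 and Fn1 were called, against 0.753% of all genes. Other lists did not set both of these mice apart. B and plasma cell markers (6 genes) summed to 13.5 RPKM in old-OSKM mouse 1 and 6.58 in old-OSKM mouse 4, against 0.85 to 8.19 in the other 11 mice. Endothelial markers (5 genes) summed to 10.3 and 17.97 RPKM in old-OSKM mice 1 and 4, against 8.31 to 14.7, and mesothelial markers (5 genes) to 3.33 and 5.58, against 0.89 to 4.72. Beta cell markers (5 genes) were lowest of all mice in old-OSKM mouse 1, at 65.3 RPKM, and highest in old-OSKM mouse 4, at 425, with 96.7 to 343 in the others. The hepatocyte sum was 4.12 RPKM in old-OSKM mouse 1 and 1.79 in old-OSKM mouse 4. The part of these cell types in the complement differences was not tested.

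**Figure D3:**
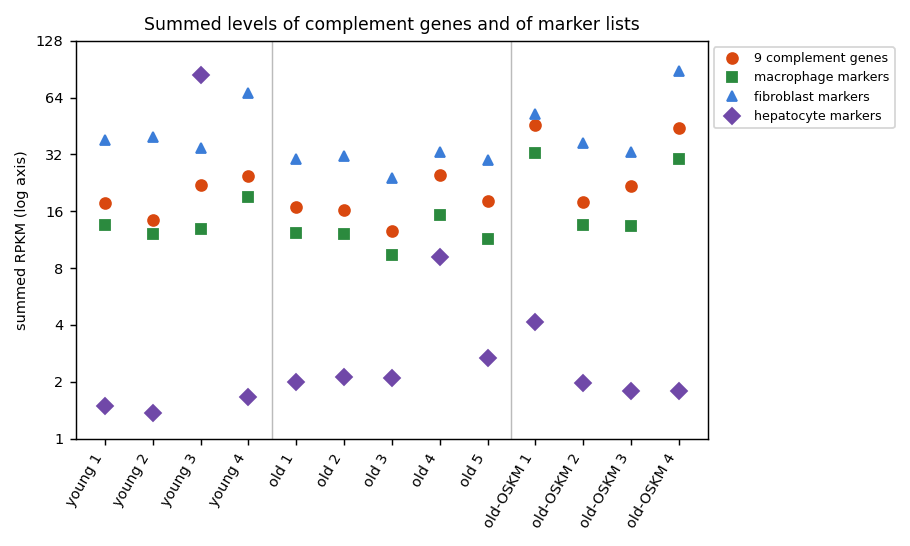
Summed RPKM (vertical log axis) of the 9 complement genes and of the macrophage, fibroblast and hepatocyte marker lists in each of the 13 mice. The complement and macrophage sums are highest in old-OSKM mice 1 and 4, and the hepatocyte sum is highest in young mouse 3, at 83.8.

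Around these 9 genes, 43 further complement genes were measured, in 6 functional groups. Between old-OSKM and old mice, 1 of the 43 was called, C1qc, where 0.753% of all genes were. At a raw p under 0.05, 8 of the 43 were higher, against 3.98% of all genes, and 2 were lower, which is near the 4.08% of all genes, and the median difference was 0.10, beside -0.04 over all genes. Between old and young mice none was called, 2 were higher and 1 was lower at a raw p under 0.05, in all 3 of 43 against 5.52% of all genes. Between old-OSKM and young mice none was called, against 0.625% of all genes, 5 of the 43 were higher at that p, against 2.91%, and 1 was lower, near the 2.16% of all genes. No gene of the list passed the adjustment over all genes in any comparison. The count between old-OSKM and old mice moved with single mice. It was 5 without old-OSKM mouse 2 (C1qa, C1qc, C1rb, Cfp and Itgam), 3 without old mouse 4 (C1qc, Cfp and Itgam), 2 without young mouse 4 or without old-OSKM mouse 3 (C1qc and Cd59b), and 0 without any one of the other mice. The calls over all genes moved too, from 94 without old-OSKM mouse 1 to 338 without old-OSKM mouse 2.

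The initiation group (15 genes) held 6 of the 8 genes higher in old-OSKM than in old mice at a raw p under 0.05. At that p 3.98% of all genes were higher. Over the whole group 8 genes were higher and 7 lower, with a median difference of 0.04, beside -0.04 over all genes. The C1q chains C1qa, C1qb and C1qc, the recognition part of the classical pathway, were higher in old-OSKM than in old mice by 0.77 ± 0.31, 0.86 ± 0.36 and 1.02 ± 0.32, with raw p-values of 0.029, 0.0352 and 0.00804 and adjusted p-values of 0.547 in limma. Without old-OSKM mouse 1 these differences were 0.48 in C1qa, 0.53 in C1qb and 0.71 in C1qc. C1qc was at 0.80, 0.72, 0.70 and 1.68 log2 RPKM in young mice, at 0.89, 1.00, 0.44, 1.14 and 0.82 in old mice, and at 2.79, 1.18, 1.42 and 2.11 in old-OSKM mice. All 4 old-OSKM mice were above all 5 old mice in C1qc, where 1.73% of all genes separated these groups, and old-OSKM mice 1 and 4 led again. Its call was narrow, and it was lost in 9 of the 13 fits that left out 1 mouse (each mouse but young mouse 4, old mouse 4 and old-OSKM mice 2 and 3), with raw p-values of up to 0.0255. The copies C1rb and C1s2 were higher by 0.53 and 0.54, near the differences of C1ra and C1s1 with which they share sequence, and Fcna, a ficolin of the lectin pathway, was higher by 0.78. Without old-OSKM mouse 1, C1rb and C1s2 differed by 0.36 and 0.39 (raw p 0.114 and 0.142 in limma). Without old-OSKM mouse 4, Fcna differed by 0.56 (raw p 0.134 in limma). C1rl, at a mean of 1.73, differed by -0.01. Colec10, a collectin, was lower in old than in young mice by 1.01 on the log2 scale, but its young values ran from -4.57 to -2.03, the highest in young mouse 3, and its old values lay within 0.04 of each other near the floor. Without young mouse 3 the difference in Colec10 was -0.49, and without young mouse 2 it was -1.33 and a call.

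**Figure D4:**
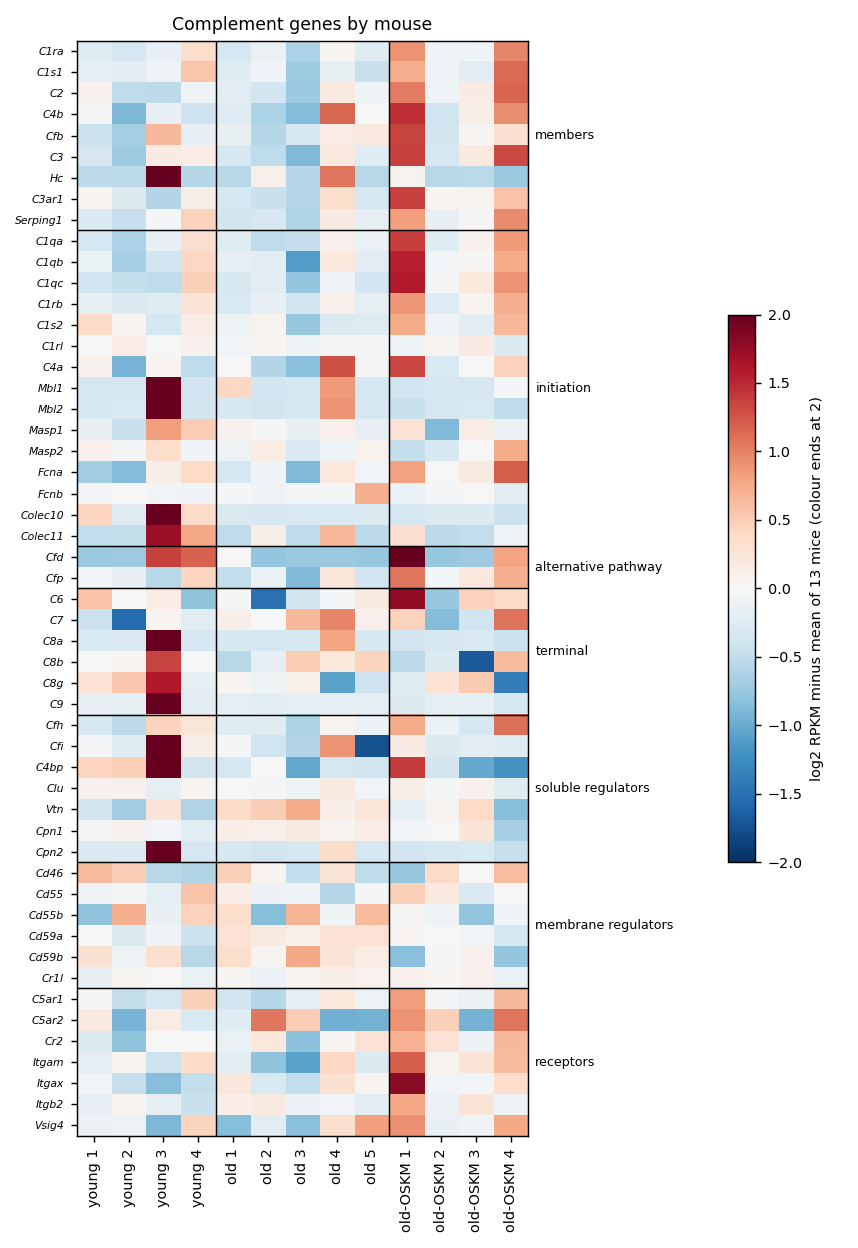
Level of the 9 genes and the 43 further complement genes in each mouse, as log2 RPKM minus the mean of the 13 mice (colour scale from -2 to 2, darker values beyond it not told apart), grouped by function. Columns of old-OSKM mice 1 and 4 are red through the C1q chains and 8 of the 9 genes, and the column of young mouse 3 is red in Hc, Mbl1, Mbl2, C8a, C9, Cfi and Cpn2.

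In the alternative pathway pair, properdin (Cfp), which stabilizes the convertase, was higher in old-OSKM than in old mice by 0.82 ± 0.28 (raw p 0.0128). Factor D (Cfd), an adipocyte product, was at 0.37 and -1.46 log2 RPKM in old-OSKM mice 1 and 4 and at -2.99 and -2.97 in old-OSKM mice 2 and 3. It was also at -0.87 and -1.05 in young mice 3 and 4, and between -3.01 and -2.98 in 4 of the 5 old mice, and no comparison gave a raw p below 0.147. Values in 8 mice lay within 0.3 of the lowest, so Cfd stayed near its own lowest level in most pancreata. In the terminal group (6 genes) no gene had a raw p under 0.05 in any comparison, and C8b and C8g, the most abundant of them, had means of -2.18 and -1.57. Of the 7 receptors beyond C3ar1, 7 had a higher mean in old-OSKM than in old mice, and Itgam, the alpha chain of complement receptor 3, was higher by 0.94 ± 0.31 (raw p 0.011). Itgax and Cr2 were higher in old-OSKM than in young mice, by 0.97 and 0.65, with raw p-values of 0.024 and 0.0341, the former being 0.54 without old-OSKM mouse 1. Itgb2, the shared beta chain, differed by 0.21 from old mice, with a raw p of 0.249.

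The regulators that protect host cells behaved otherwise. Clusterin (Clu), the most abundant complement gene of all, at a mean of 5.75 log2 RPKM, differed by -0.01, -0.02 and -0.02 in the 3 comparisons. Cd59a, whose membrane protein stops assembly of the attack complex, was at 0.93, 0.64, 0.83 and 0.49 in young mice, at 1.21, 1.09, 1.01, 1.21 and 1.21 in old mice, and at 0.96, 0.92, 0.86 and 0.57 in old-OSKM mice. All 5 old mice were above all 4 young and all 4 old-OSKM mice. Over all genes, 2.71% separated old from young mice and 1.73% separated old-OSKM from old mice. The difference was 0.42 ± 0.10 between old and young mice (raw p 0.00134, adjusted p 0.275 in limma) and -0.32 ± 0.10 between old-OSKM and old mice (raw p 0.00869, adjusted p 0.547), both under 1.5-fold. Both use the same old mice. Cd59b, a second gene of the kind, was lower in old-OSKM than in old mice by 0.70 ± 0.25 (raw p 0.0159), at -1.87, -1.06, -0.95 and -1.81, with the low values in old-OSKM mice 1 and 4. Vitronectin (Vtn), a soluble inhibitor of the attack complex, was higher in old than in young mice by 0.75 ± 0.25 (raw p 0.013), with young mice at 3.03, 2.70, 3.66 and 2.79 and old mice at 3.77, 3.88, 4.14, 3.52 and 3.63. Only young mouse 3 reached the old range, and without it the difference was 0.95 with a raw p of 0.00249, which made it a call, as leaving out old-OSKM mouse 3 or old-OSKM mouse 4 did. Cr1l, the mouse regulator Crry, had a mean of 1.94 and differed by 0.09 or less in each comparison.

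**Figure D5:**
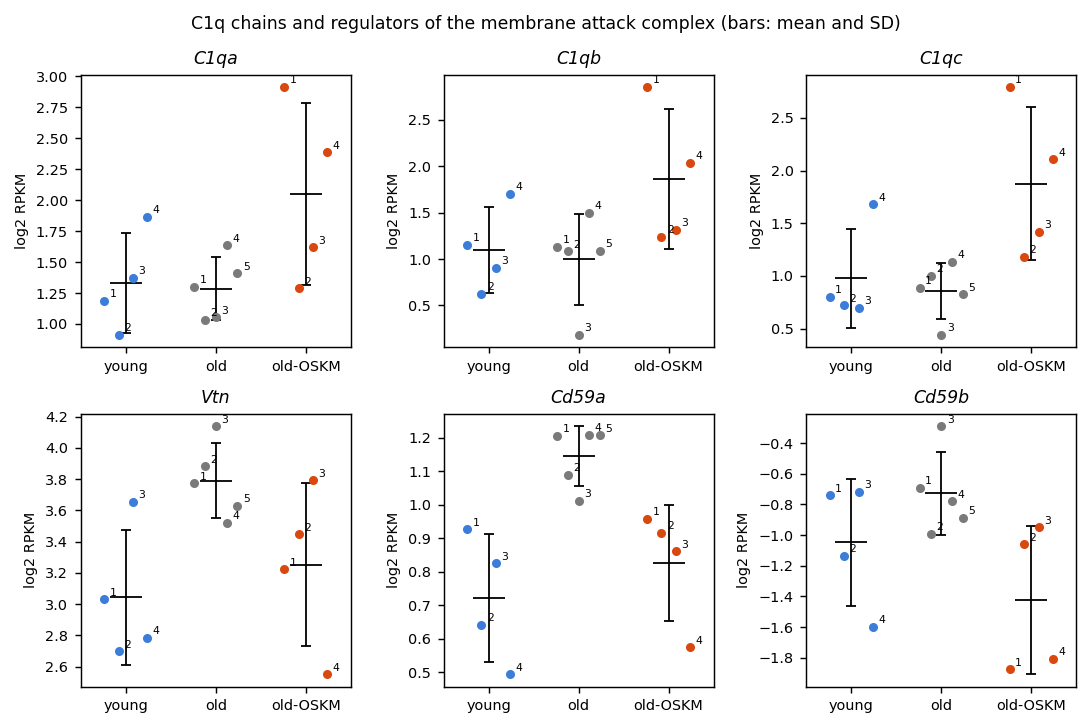
Level (log2 RPKM, vertical axis) of the C1q chains and of the regulators Vtn, Cd59a and Cd59b in each group, with 1 numbered point per mouse and black bars for the mean and SD. The 4 old-OSKM mice lie above the 5 old mice in C1qc, and the 5 old mice lie above all other mice in Cd59a.

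Of 19 cytokines, receptors and transcription factors known to act on complement genes, 1 was called between old-OSKM and old mice, where 0.753% of all genes were, and 2 were higher and 1 lower at a raw p under 0.05, against 3.98% and 4.08% of all genes. Tnf, an inflammatory cytokine, was at -3.54, -2.36, -2.88 and -3.59 log2 RPKM in young mice, at -3.55, -3.59, -3.54, -3.56 and -3.56 in old mice, and at -1.78, -2.85, -2.34 and -2.14 in old-OSKM mice. The difference of 1.28 ± 0.26 (raw p 0.000349, adjusted p 0.547 in limma) set values low in the table against old values that were nearly constant, which measure no difference between old mice. Irf1, an interferon-responsive factor, was at 2.00, 1.19, 1.04 and 1.62 in old-OSKM mice and from 0.74 to 1.03 in old mice, a difference of 0.57 ± 0.16 (raw p 0.00537, adjusted p 0.547 in limma) that stayed just under 1.5-fold, and Irf1 was a call without old mouse 5, old-OSKM mouse 2 or old-OSKM mouse 3. Compared with young mice, Tnf was higher by 0.82 (raw p 0.0111), a call without young mouse 2 or old-OSKM mouse 2. Against the same mice Il1b was higher by 0.93 (raw p 0.0436) and Rela, a subunit of NF-kB, by 0.18 (raw p 0.0171). These are 3 of the 19 genes, where 2.91% of all genes were higher at a raw p under 0.05. Untreated old mice also had a higher mean than young mice in Il1b and Rela, by 0.55 and 0.15, so that trait was not particular to old-OSKM mice. Of these 2 differences, only that of Rela had a raw p under 0.05 in limma. Il1b was low, with 5 mice within 0.3 of its lowest value. Il6ra, the receptor chain of interleukin 6, was lower in old-OSKM than in old mice by 0.22 on the log2 scale (raw p 0.0426). Stat3 and Il6st, the abundant signalling parts of the same route, differed by 0.17 and 0.23, with raw p-values of 0.207 and 0.113.

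Among 8402 other genes with a mean log2 RPKM above 0, the pattern over the 13 mice most like the mean of the 9 genes (each scaled to its own spread) was that of C1qa, with a Pearson's r of 0.96. The next were H2-T23 (0.94), C1rb (0.94), B2m (0.94), Cwf19l2 (0.94), H2-Q4 (0.93), H2-D1 (0.93), Ly6a (0.93), Cd74 (0.93) and C1qb (0.93). Of these, H2-T23, H2-Q4, H2-D1 and B2m encode parts of MHC class I molecules and Cd74 the invariant chain of class II. C1rb shares sequence with C1ra, which is among the 9 genes. The values come from the same libraries, and the list was ranked by r, so no test is given.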

How the data were processed

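Pancreas RNA of 13 mice was sequenced with paired ends after rRNA depletion. The authors aligned reads with STAR 2.3.0e to mm10, used Casper to estimate RPKM by isoform, added these up by Entrez gene, and quantile normalized the log2 values. The deposited log2 RPKM values were used as they are, with no filter or pseudocount. The methods also name a correction for each sample's read total, and whether the table holds it is not stated. Depth per mouse is unknown, since 1 read number is given for all samples. Groups follow the labels, and nothing says whether the mice were littermates. The 3 groups were fitted together with limma 3.58.1 in R 4.3.3, with no covariate, and Benjamini-Hochberg adjustment ran over 23366 genes. Calls required a raw p under 0.01 and more than a 1.5-fold change. Single genes were also tested by exact permutation. The 9 members, the 43 further complement genes, the 19 factors and the marker lists were chosen with earlier results of these data known. Genes named from the lists are those with a raw p under 0.05 and the most abundant of each group, with a few others chosen after their values were seen. The limma step was tested on simulated data. Alternatives covered normalization, pseudocounts, a filter, other fits, the identifier run and each mouse left out. Positions are from GRCm38.p6, exon overlaps from GENCODE M21.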

Additional observations from a re-analysis of the deposited data

Results flagged for a closer look

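Of 114 groups of mice (38 named genes in 3 groups), 8 held a mouse that stood far from the rest of its group by Dixon's test, where a share of 0.05 is flagged by chance alone. Among the 9 genes these were C1s1 in young mouse 4, at 2.28 log2 RPKM against 1.503 to 1.63 in the other young mice, Hc in young mouse 3, at -0.35 against -4.79 to -4.75, and C3ar1 in old mouse 4, at -0.19 against -1.11 to -0.87. Young mouse 3 also stood apart in C8b, a terminal component, at -0.84 against -2.19 to -2.14, and in clusterin (Clu), at 5.55 against 5.80 to 5.84. Young mouse 4 stood apart in C1qc, at 1.68 against 0.70 to 0.80. The other groups were Il1b, at -2.62 in young mouse 1 against -3.40 to -3.31, and Cfd, at -2.22 in old mouse 1 against -3.01 to -2.98. Both genes were low, with 5 mice within 0.3 of the lowest value in Il1b and 8 in Cfd. In old mouse 1, Cfd and Mbl1 held the same value, -2.22, so this step is not particular to Cfd. No mouse of the old-OSKM group stood apart in this way. The test looks for a single distant mouse, and old-OSKM mice 1 and 4 were high together in most of the 9 genes. Its result therefore does not show that the old-OSKM mice were alike.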

How the results depend on the processing

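No member or list median changed direction between old-OSKM and old mice under any alternative, except that the median of the 43 further genes was -0.01 without old mouse 3. No paired analysis was possible because the labels give the groups no shared replicate numbers. A repeated quantile normalization, centring on each mouse's median, a pseudocount of 0.1 and trend with robust eBayes changed none of the counts given for the lists. With a pseudocount of 1 the further genes called between old-OSKM and old mice were 0 in place of 1, and Cfb differed by -0.0108 between old and young mice. With genes of a mean above 0 only, 1 further gene (Vtn) was called between old and young mice, and 1 member had a raw p under 0.05 between old-OSKM and young mice. With the 2 groups compared alone these counts were 1 and 1, and 0 further genes were called between old-OSKM and old mice. By exact permutation 0 members had a p under 0.05 between old-OSKM and young mice. With the identifier run as a covariate, 2 further genes (Cr2 and Fcna) were called between old-OSKM and young mice, and C1qa differed by 0.0679 between old and young mice. In the earlier run alone, 0 further genes were called between old-OSKM and old mice and 1 (Fcna) between old-OSKM and young mice. There the differences between old and young mice were -0.0715 (C2), 0.15 (C3), 0.0158 (C1ra), 0.0870 (Serping1), 0.54 (Hc), 0.21 (C1qa), 0.0855 (C1qb) and 0.10 (C1qc), and that of Hc between old-OSKM and young mice was 0.0863. Leaving out young mouse 3 and old mouse 4 together, an alternative added after the data were seen, gave 1 member (C3ar1) and 2 further genes (Cfp and Itgam) called between old-OSKM and old mice, 1 further gene (Vtn) between old and young mice, differences of -0.18 (C2) and 0.15 (Hc) between old and young mice, and 0.10 (Hc) between old-OSKM and young mice. The causes were not tested.

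With each mouse left out in turn, the members called ranged from 0 to 5 between old-OSKM and old mice and from 0 to 2 between old-OSKM and young mice, and those with a raw p under 0.05 from 1 to 7 and from 0 to 6. Over all genes the calls ranged from 94 to 338 and from 121 to 253 in the same comparisons. The further genes called ranged from 0 to 1 between old and young mice, from 0 to 5 between old-OSKM and old mice and from 0 to 3 between old-OSKM and young mice, each highest count but the one between old and young mice coming without old-OSKM mouse 2. The differences between old and young mice that changed sign ranged from -0.0934 to 0.14 (C2), -0.0644 to 0.44 (C4b), -0.17 to 0.27 (Cfb), -1.04 to 0.44 (Hc), -0.24 to 0.00901 (C3ar1), -0.19 to 0.13 (C1qa), -0.26 to 0.10 (C1qb) and -0.21 to 0.12 (C1qc), and that of Hc between old-OSKM and young mice from -1.38 to 0.10. Over all genes, a pseudocount of 1 left 16, 2 and 8 genes called in the 3 comparisons in place of 207, 176 and 146, a pseudocount of 0.1 left 116, 77 and 76, and the filter on the mean left 44, 35 and 19.

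The groups held 4 or 5 mice, and the pooled SD of the 9 genes had a median of 0.45 log2 units. The table gives no depth per mouse, so no count behind Hc or the other low genes can be given.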
